A study of Mus musculus with 24 samples.

Results

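The mitochondrial ribosomal protein genes of the mouse, named Mrpl for the large and Mrps for the small subunit, were followed in differentiating brite adipocytes after knockdown of the long noncoding RNA Ctcflos. Members were taken by symbol, Mrpl or Mrps followed by a digit, from the RefSeq mRNA entries of the deposited table. Where a symbol had several such entries, the one with the highest mean over the 24 libraries was used. This gave 76 genes out of 52089 gene symbols in the table.

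The cells were primary cultures from the stromal vascular fraction of inguinal white fat of 129SvEv mice, and all of them received rosiglitazone, a PPARγ agonist that turns white fat precursors into brite, that is, brown-like, cells. On the first day of differentiation they were reverse transfected with 50 nM of an LNA gapmer, an antisense oligonucleotide that recruits RNase H. The gapmer was directed either at Ctcflos (knockdown, KD) or at no known transcript (nontargeting control, NC), and cells were harvested after 24 h or 72 h. Each of the 4 groups, KD and NC at either time, held 6 libraries, all made by barcoded 3′ end sequencing. The labels give no untransfected cells and no age or sex of the mice, and they do not state whether replicates were separate cultures, so the p-values measure only the spread between these libraries. The paper calls the 6 replicates of this transcriptome biological, without saying what set them apart. Its methods name male mice a few weeks old.

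Mitochondrial ribosomes translate the few proteins encoded by mitochondrial DNA, all of them parts of the respiratory chain or of ATP synthase. Their RNAs come from the mitochondrial genome, whereas every protein is encoded in the nucleus, made in the cytosol and imported. Part of these proteins have bacterial counterparts and others were added in the course of mitochondrial evolution, and brown and brite fat cells, which burn fuel in the respiratory chain, are rich in mitochondria.

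The depth, recovered from the steps of the values, had a median of 4009998 mapped reads per library, with extremes of 1391830 and 5926371. The highest belonged to NC 72 h replicate 6, in which 14.9% of low read numbers were odd. It had 83874 entries above 0, beside 83674 in NC 24 h replicate 1 with 3061372 reads. Whether its recovered total is too high was not tested. Replicates 2 and 3 of NC 72 h differed by less than the sampling noise. They entered as 1 sample through their mean, which left n = 5 in that group. Apart from the groups, the libraries formed a larger set of 16 and a smaller set of 8, and the smaller set held 2 libraries of every group. The fat cell marker Fabp4 had a mean of 37682 RPKM in NC 72 h, and endothelial markers summed to at most 1.59 RPKM in any library. The target, Ctcflos (1300015D01Rik), was at 0.20 ± 0.19 RPKM (SD, n = 6) in KD 72 h and 1.31 ± 0.43 RPKM (SD, n = 5) in NC 72 h. It was too low to be fitted at 24 h, with 0.19 ± 0.23 RPKM after knockdown and 0.78 ± 0.54 RPKM in controls (SD, n = 6 each).

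Levels are given in RPKM, the reads of an entry divided by its length and by the mapped reads of the library, after scaling between libraries. Mrpl30 was the most abundant at a mean of 690.7 over the libraries, followed by Mrpl20 at 660.3 and Mrpl33 at 615.8, and in no group did Mrpl30 and Mrpl20 differ by more than the sum of their SDs. These genes also held the most reads, at 1944, 1793 and 1171 per library. Division by length lowers long transcripts in 3′ end data, so other ranks by level depend on it. Among the 73 members that could be fitted the median was 51.9, 24 members lay above 100 and 4 below 10, with Mrpl19 the lowest at 6.23. The remaining 3 members had almost no reads. Mrpl23 had a mean of 0.078, Mrps18b of 0.22 and Mrps36 of 0.47, and none of them passed the filter of 10 reads in the median library. For Mrpl23 the entry chosen by the rule was not where the reads lay, since the Ensembl entry ENSMUST00000173086 of the same symbol averaged 88.8. For Mrps18b and Mrps36 the highest entry of any kind averaged 0.30 and 0.59. For 65 of the 76 symbols some other entry of the symbol was higher than the entry chosen. For 14 symbols it was over 2-fold higher, so the levels and ranks given here are those of the chosen entries. Mrps36 is now known as a subunit of the 2-oxoglutarate dehydrogenase complex and not of the ribosome, despite its name.

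At 24 h after transfection few members had moved, and those that moved were mostly lower in the knockdown. A member was called when limma gave an adjusted p under 0.05 over all entries fitted. Of the 73 members, 10 were called lower and 3 higher in KD 24 h than in NC 24 h, or 17.8%, against 22.7% of all 52004 entries, so the share of members called was not above that of the table. The members are 1 entry per symbol, whereas the 52004 entries cover 11532 symbols. The shares of members and of all entries, here and below, therefore count unlike units. By direction these were 13.7% of the members lower and 4.11% higher, against 11.6% and 11.1% of the entries. In bulk RNA, fewer cells that express a gene and less RNA of it per cell cannot be told apart. The median log2 fold change of the members was -0.17, beside -0.01 over all entries, and 49 of the 73 lay below 0. KD 24 h replicate 6 stood apart from its group, with the lowest depth of all libraries, 1391830 mapped reads, and the lowest value of KD 24 h in 46 of the 73 members. Without it 10 members were called lower and 2 higher, and the median was -0.09. Without the filter on low values 5 were called lower and 1 higher.

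At 72 h more members were lower. In KD 72 h against NC 72 h 20 members were called lower and 1 higher, or 28.8%, against 22.3% of 54446 entries. Split by direction, 27.4% of the members were called lower, against 12% of the entries, and 1.37% higher, against 10.3%. The median over members was -0.20, beside 0.01 over all entries, and 55 of 73 lay below 0. This direction depends on the scaling between libraries. In the RPKM as deposited, the median of all entries in this comparison was itself shifted to 0.25, and there 10 members were called higher and 3 lower, with a member median of 0.05. Scaling moves all entries together by 0.24, and in both versions the median of the members lay below that of all entries. Of all entries, 29.9% were then called, 24.2% higher and 5.7% lower. At 24 h the shift was 0.05, and without scaling the member counts were again 3 and 10, beside 22.6% of entries called, 12.2% higher and 10.4% lower.

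**Figure D1:**
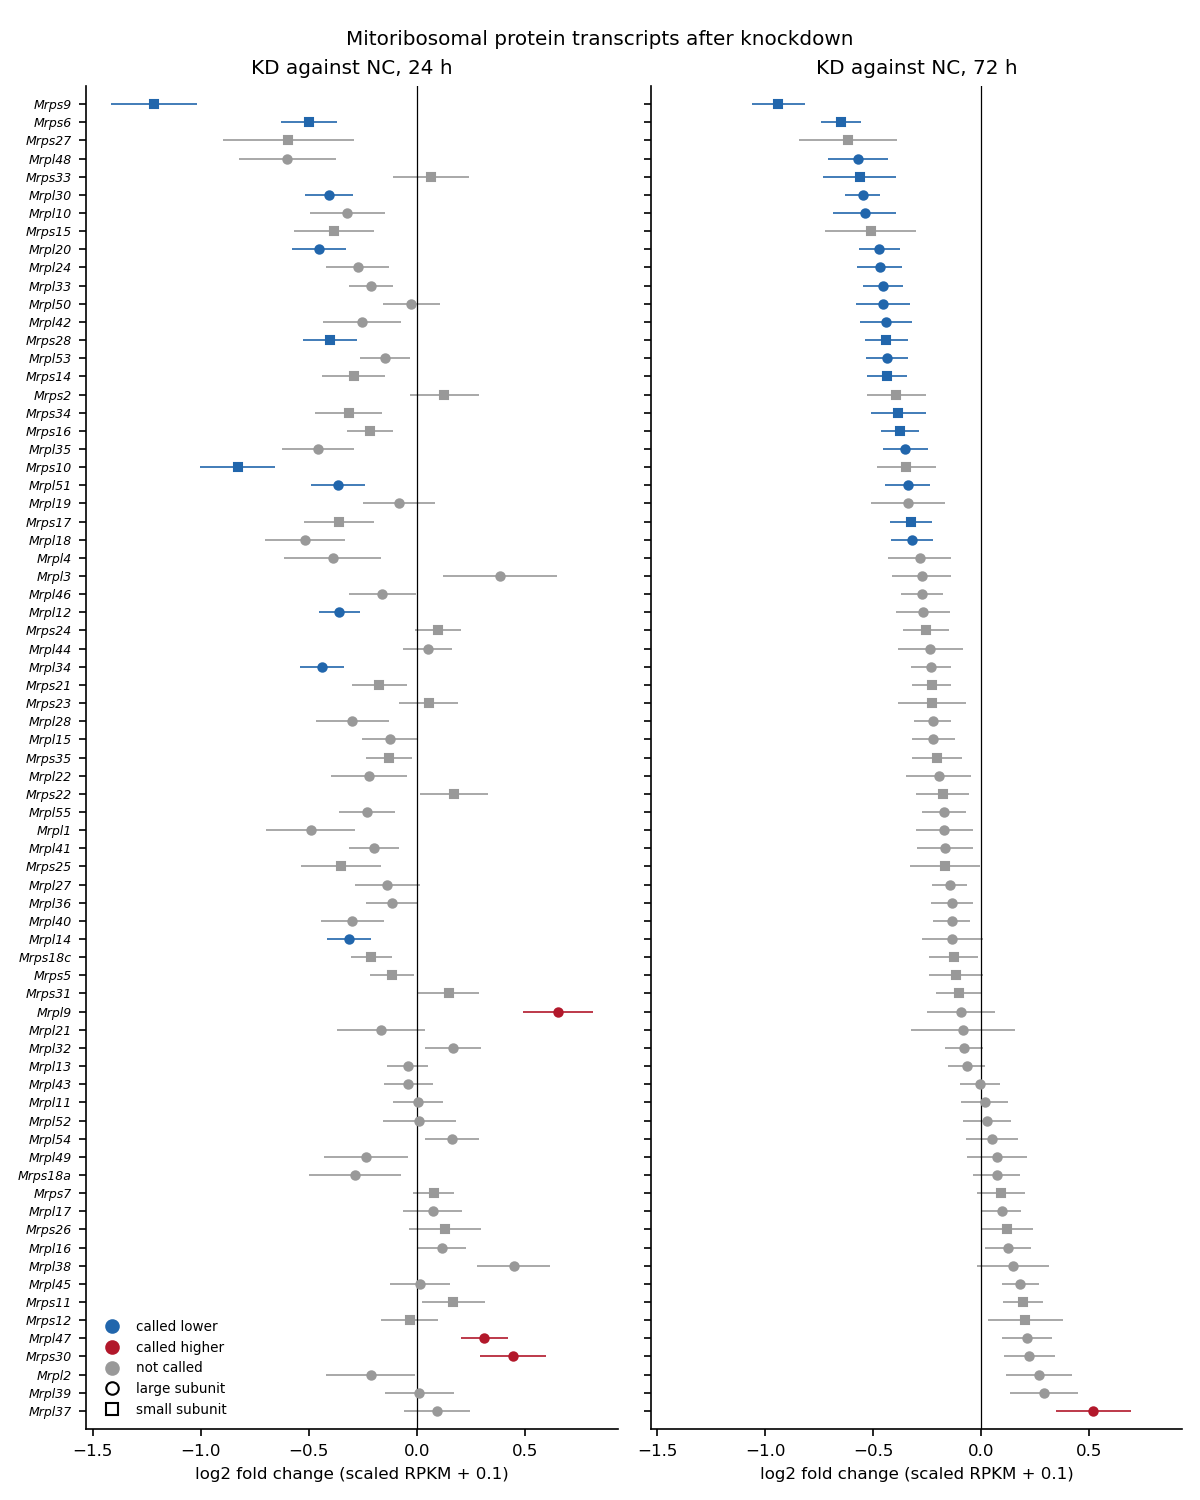
Log2 fold change of the 73 fitted members (x axis, log2 of scaled RPKM + 0.1) in KD against NC at 24 h and 72 h, with bars for the standard error; circles are large and squares small subunit proteins. Blue marks members called lower, 10 at 24 h and 20 at 72 h, and red those called higher, 3 at 24 h and 1 at 72 h, all relative to the scaling between libraries (as deposited, 3 lower and 10 higher at 72 h); rows are in the order of the 72 h values, with Mrps9 at the top.

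Of the 28 members called at either time, 6 were called lower at both, and 0 were called in opposite directions. Of all entries, 11.6% were called lower at 24 h and 12% at 72 h. The share of all entries called at both times is not given here, so these counts cannot be set against it. The 6 members were Mrps9, Mrps6 and Mrps28 of the small subunit and Mrpl30, Mrpl20 and Mrpl51 of the large subunit. The sixth, Mrpl51, was added to those named after its values were seen.

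Mrps9, the counterpart of bacterial S9 in the head of the small subunit, showed the largest fall of all members at both times. At 24 h it ranged from 19.7 to 57.2 RPKM with a median of 33.9 in KD, and from 78.8 to 89.3 with a median of 83.9 in NC. At 72 h KD ranged from 35.7 to 58.1 with a median of 41.2, and the 5 NC samples measured 94.6, 75.0, 82.3, 79.6 and 82.6 RPKM. Every knockdown library lay below every control library of its time, so the groups did not overlap. The log2 fold change was -1.22 ± 0.20 (SE, adjusted p = 0.0013, limma) at 24 h and -0.94 ± 0.12 (SE, adjusted p = 0.00016) at 72 h. Mrps9 kept its call under all alternatives at both times, including the values as deposited (-0.69 at 72 h) and either set of libraries alone. Its 24 h value was -1.55 with the larger set alone and -0.60 with the smaller.

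Mrps6, the counterpart of bacterial S6 on the platform of the small subunit, ranged from 118.3 to 217.3 RPKM with a median of 172.4 in KD 24 h and from 220.7 to 261.3 with a median of 242.9 in NC 24 h. In KD 72 h the lowest library had 118.7, the median was 120.6 and the highest 150.8 RPKM, and the 5 samples of NC 72 h had 200.5, 196.6, 198.6, 187.5 and 228.1 RPKM. The groups were separate at both times, and 4 of the 6 KD 72 h libraries sat within a narrow band at the low end. The fold changes were -0.50 ± 0.13 at 24 h (SE, adjusted p = 0.014, limma) and -0.65 ± 0.09 at 72 h (SE, adjusted p = 0.00029).

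Mrpl30 and Mrpl20, both with bacterial counterparts in the large subunit, are the most abundant members and were also separate between KD and NC at both times. Mrpl30 went from 469.2 to 755.6 RPKM (median 664.0) in KD 24 h, and from 777.5 to 935.9 (median 886.4) in NC 24 h. In KD 72 h it went from 435.0 to 584.3 (median 506.3), and the NC 72 h samples lay close together at 739.7, 730.7, 749.5, 722.6 and 752.7 RPKM. The log2 changes of Mrpl30 were -0.41 ± 0.11 (SE, adjusted p = 0.018, limma) and -0.55 ± 0.08 (SE, adjusted p = 0.00040). Mrpl20, which in bacteria binds the ribosomal RNA early in assembly, measured 456.3 to 792.1 RPKM (median 583.3) in KD 24 h against 794.2 to 940.3 (median 820.0) in NC 24 h. At 72 h it measured 421.2 to 566.1 (median 499.2) in KD against 692.1, 649.7, 680.4, 755.2 and 647.7 RPKM in NC. The highest KD 24 h library of Mrpl20 came close to the lowest control. Its log2 changes were -0.45 ± 0.12 (SE, adjusted p = 0.019, limma) and -0.47 ± 0.09 (SE, adjusted p = 0.0028).

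The other 2 members called at both times overlapped with their controls in part. Mrps28, related to bacterial S1, was at 87.2 ± 16.2 RPKM in KD 24 h, 115.3 ± 11.1 in NC 24 h, 86.0 ± 10.5 in KD 72 h (SD, n = 6 each) and 116.4 ± 9.0 in NC 72 h (SD, n = 5). Its call at 24 h (-0.40 ± 0.12, SE, adjusted p = 0.032) was lost on leaving out any of 6 of the 12 libraries, with adjusted p up to 0.071, namely KD 24 h replicates 1 and 5 and NC 24 h replicates 2, 3, 4 and 6. At 72 h its groups were separate (-0.44 ± 0.10, SE, adjusted p = 0.0059). Mrpl51, found only in mitochondria, was at 81.9 ± 15.7 and 105.1 ± 6.8 RPKM in KD and NC 24 h (SD, n = 6 each), and at 77.0 ± 8.6 (SD, n = 6) and 97.7 ± 10.9 RPKM (SD, n = 5) at 72 h. Its fold changes were -0.37 ± 0.12 and -0.34 ± 0.10 (SE), with adjusted p = 0.047 and 0.031.

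**Figure D2:**
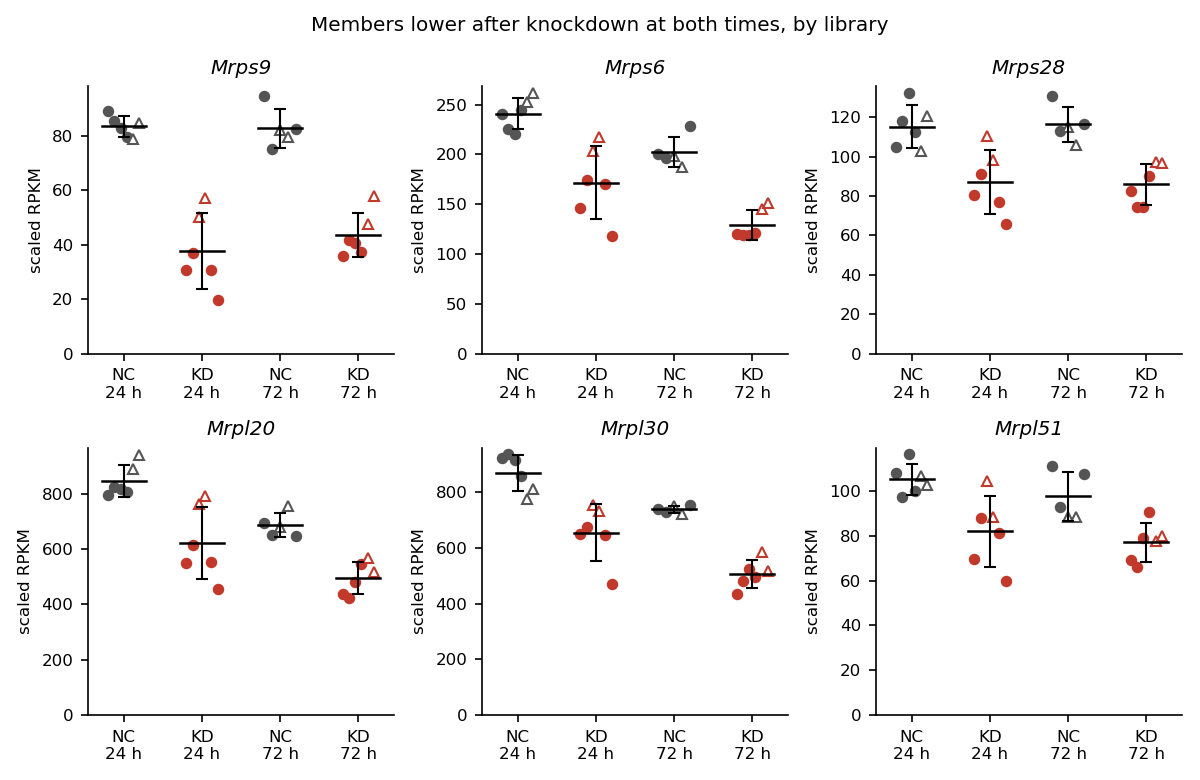
Scaled RPKM (y axis, from 0) in every sample for the 6 members called lower at both times, by group; horizontal lines and bars are means ± SD, filled circles are libraries of the larger set and open triangles those of the smaller set. All KD 72 h samples of Mrps9 lie at or below 58.1 and all NC 72 h samples at or above 75.0; in KD 24 h the smaller set gave the higher 2 values of Mrps9, Mrps6, Mrps28, Mrpl20, Mrpl30 and Mrpl51.

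For the members called lower together, the DNA before the start sites was read from the RefSeq promoter table (GRCm38.p6), which held 67 of the 76 members and 5 of these 6, Mrps28 excepted. Shown are the 4 of them whose window from 250 bases before to 50 after the start held one of the sequences searched, with that sequence in capitals. They are the letters bound by NRF1, a regulator of nuclear genes for mitochondria, in Mrps9 and Mrpl30 (on the opposite strand in both), an E-box in Mrpl20, and the letters bound by ETS factors such as GABPA in Mrpl51. Each line gives the 250 bases before the start, and that of Mrps9 runs on to 255 because its NRF1 letters cross the start. The window of Mrps6 held none of the letters searched.
Mrps9 (chr1:42850983-42851237, plus strand): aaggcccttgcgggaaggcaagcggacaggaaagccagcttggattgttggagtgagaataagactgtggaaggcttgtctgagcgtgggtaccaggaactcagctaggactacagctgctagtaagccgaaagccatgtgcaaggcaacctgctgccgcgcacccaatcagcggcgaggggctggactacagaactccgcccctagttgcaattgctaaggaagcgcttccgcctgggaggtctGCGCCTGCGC
Mrpl30 (chr1:37890227-37890476, plus strand): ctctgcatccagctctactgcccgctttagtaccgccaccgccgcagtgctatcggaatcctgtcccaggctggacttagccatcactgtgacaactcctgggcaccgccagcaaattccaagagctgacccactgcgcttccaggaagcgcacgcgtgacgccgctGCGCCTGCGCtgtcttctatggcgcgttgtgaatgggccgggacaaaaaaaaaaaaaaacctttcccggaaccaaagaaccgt
Mrpl20 (chr4:155802628-155802877, plus strand): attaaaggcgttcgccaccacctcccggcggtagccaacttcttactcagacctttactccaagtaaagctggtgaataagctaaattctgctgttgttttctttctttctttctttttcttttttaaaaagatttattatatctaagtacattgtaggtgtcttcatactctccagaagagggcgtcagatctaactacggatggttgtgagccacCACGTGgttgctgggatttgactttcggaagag
Mrpl51 (chr6:125191950-125192199, plus strand): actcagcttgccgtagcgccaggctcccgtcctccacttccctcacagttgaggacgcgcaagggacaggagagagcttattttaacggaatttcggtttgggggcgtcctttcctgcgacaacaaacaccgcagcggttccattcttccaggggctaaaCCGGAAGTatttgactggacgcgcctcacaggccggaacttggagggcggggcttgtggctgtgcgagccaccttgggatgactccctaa

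In all members the NRF1 motif, GCGCA and GCGC with any base between them, occurred on either strand in 12 of 67 windows, or 17.9%, against 5.19% of the windows of all 27025 genes in the table. CCGGAAGT (ETS) occurred in 12 members, or 17.9%, against 4.31% of all genes, and AAGATGGCG (YY1) in 8, or 11.9%, against 1.64%. At least one of these 3 was present in 30 of 67 members and in 10.3% of all genes. CACGTG (E-box) was present in 5 members, or 7.46%, against 8.09%, and TCAAGGTCA (ESRRA) in 0 of 67 against 0.47%. Between members called lower at 72 h and members not called, the NRF1 letters were found in 2 of 18 and 10 of 45, the ETS letters in 4 of 18 and 8 of 45, and the YY1 letters in 2 of 18 and 5 of 45. As shares these were 11.1% and 22.2% for NRF1, 22.2% and 17.8% for ETS, and 11.1% in both for YY1. The 27025 genes include many that were not fitted in these cells. The shares among fitted genes alone are not given here, so the excess cannot be called particular to the members. A match is a description of the sequence, and binding was not measured.

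Among the other members called at 24 h, Mrps10, the counterpart of bacterial S10 in the head of the small subunit, fell most. It ranged from 12.1 to 26.5 RPKM (median 16.1) in KD and from 25.5 to 39.5 (median 29.0) in NC, so that the groups overlapped at the edge. Its log2 change was -0.83 ± 0.17 (SE, adjusted p = 0.0047, limma) at 24 h, and it was -0.35 ± 0.14 at 72 h, where it was not called (adjusted p = 0.082). Mrpl34, a small protein of the large subunit, ranged from 124.7 to 171.6 RPKM (median 147.3) in KD and from 176.5 to 213.8 (median 210.6) in NC, without overlap. It changed by -0.44 ± 0.10 (SE, adjusted p = 0.0072). Mrpl12, which forms the stalk where translation factors dock, was at 91.9 to 121.1 RPKM (median 105.7) in KD 24 h and 127.1 to 143.8 (median 136.9) in NC 24 h, again without overlap. Its change was -0.36 ± 0.10 (SE, adjusted p = 0.016) at 24 h and -0.27 ± 0.13 at 72 h (adjusted p = 0.14). Mrpl14 completed the 10 members that fell at 24 h.

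The 3 members called higher at 24 h were all large subunit proteins. Mrpl9, on the side of the large subunit, ranged from 15.8 to 27.9 RPKM (median 21.3) in KD and from 10.5 to 17.3 (median 13.8) in NC, with overlap in part. It rose by 0.66 ± 0.16 (log2, SE, adjusted p = 0.012, limma) and kept its call without any single library. At 72 h it was level, at 15.2 ± 2.7 RPKM (SD, n = 6) in KD and 16.3 ± 3.0 (SD, n = 5) in NC. Mrpl47, near the exit of the peptide tunnel, was at 62.7 ± 4.9 RPKM in KD and 51.1 ± 5.5 in NC (SD, n = 6 each), and its groups did not overlap (0.31 ± 0.11, SE, adjusted p = 0.047). Mrps30, which despite its name sits in the large subunit, was at 49.8 ± 10.3 and 36.5 ± 4.9 RPKM (SD, n = 6 each; 0.45 ± 0.15, SE, adjusted p = 0.049). Both of these calls were near the threshold. That of Mrpl47 held only without KD 24 h replicate 1 and that of Mrps30 only without KD 24 h replicate 4, and each was lost on leaving out any other of the 12 libraries (adjusted p up to 0.11). The count of members called higher was then 1 without any of 9 of the libraries, namely KD 24 h replicates 2, 3 and 5 and the 6 of NC 24 h.

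At 72 h Mrps9, Mrps6, Mrpl48, Mrps33 and Mrpl30 fell most among the members called. Mrps27 had a log2 change of -0.62 but was not called. Mrpl48, in the central protuberance, was at 20.1 to 30.4 RPKM (median 23.5) in KD and at 30.4, 31.7, 38.5, 38.5 and 42.7 in NC, so that the highest knockdown library reached the lowest control. It changed by -0.57 ± 0.14 (SE, adjusted p = 0.0093, limma), and by -0.60 ± 0.22 at 24 h, where its spread was larger and it was not called (adjusted p = 0.067). Mrps33, a mitochondria-specific protein of the head, was at 8.49 to 12.2 RPKM (median 10.6) in KD and at 20.6, 13.3, 11.1, 18.5 and 16.5 in NC. Its call (-0.56 ± 0.17, SE, adjusted p = 0.029) was lost without any one of KD 72 h replicates 1 and 2 and NC 72 h replicates 1, 5 and 6. Mrpl33, which sits near the tRNA exit site and was the third most abundant member, was at 484.8 to 573.4 RPKM (median 541.4) in KD and at 748.7, 653.7, 740.8, 866.3 and 670.9 in NC, without overlap (-0.45 ± 0.09, SE, adjusted p = 0.0030). The other members called lower lay between -0.54 and -0.32, with Mrpl10 of the stalk at the low end and Mrpl18 of the central protuberance at the high end.

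Mrpl37, a mitochondria-specific protein of the large subunit, was the single member called higher at 72 h. It measured 12.5 to 23.2 RPKM (median 14.2) in KD and 10.6, 12.0, 11.4, 12.6 and 9.21 in NC, so the groups just touched. The change of 0.52 ± 0.17 (SE, adjusted p = 0.045, limma) rose to 0.77 in the values as deposited. The call was lost, and the count of members called higher was 0, without any one of KD 72 h replicates 1, 3, 5 and 6 and NC 72 h replicates 1, 4, 5 and 6. The members that were called higher only as deposited had scaled changes between 0.10 and 0.29, and Mrps9, Mrps6 and Mrpl30 were the 3 called lower in both versions.

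Summed over the 73 members, the level was 5700 to 8380 RPKM (median 7190) in KD 24 h, 8324 to 8799 (median 8510) in NC 24 h, 5960 to 7091 (median 6494) in KD 72 h and 7728 to 8125 (median 8068) in NC 72 h. The sum is carried by the abundant members. At 72 h the 2 groups were separate, and at 24 h they overlapped at the edge. In deposited RPKM the sums at 72 h were 6697 to 8394 in KD and 7094 to 7747 in NC, which overlap.

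The members called belonged to both subunits, and their counts stand beside 11.6% of all entries called lower and 11.1% called higher at 24 h, and 12% and 10.3% at 72 h. As deposited, all entries together had a 72 h median of 0.25, with calls upward in 24.2% of them and downward in 5.7%. Of 48 fitted large subunit proteins 6 were called lower and 3 higher at 24 h, and 12 lower and 1 higher at 72 h. Their medians were -0.16 and -0.17. In the deposited values 1 was lower and 8 higher at 72 h, and their median of 0.08 lay below that of all entries. Of 25 small subunit proteins 4 were called lower at 24 h and 8 at 72 h, and 0 higher, with medians of -0.17 and -0.26, and as deposited 2 were lower and 2 higher at 72 h with a median of -0.01. The 44 proteins with a bacterial counterpart had medians of -0.21 and -0.23 and the 28 found only in mitochondria -0.03 and -0.17, beside -0.01 and 0.01 over all entries, and as deposited their 72 h medians were 0.02 and 0.08. By position, the 6 proteins of the small subunit head had medians of -0.11 and -0.39, with 2 and 3 called lower, or 1 at 72 h as deposited, beside the same shares of all entries. The 7 proteins on the side of the peptide exit had medians of 0.02 and 0.10, with Mrpl47 called higher at 24 h and Mrpl24 lower at 72 h, where as deposited 4 were higher and 0 lower. Differences between these classes were not tested.

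Several members have roles beyond the ribosome's core or are tied to a known function. Mrps12, which lines the decoding centre, was at 19.9 ± 4.3 RPKM (SD, n = 6) in KD 72 h and 17.3 ± 3.7 (SD, n = 5) in NC 72 h (log2 change 0.20 ± 0.17, SE, adjusted p = 0.43, limma). Mrpl44, a protein with an RNase III-like fold, changed by -0.23 ± 0.15 (SE, adjusted p = 0.28). Mrpl45, which ties the ribosome to the inner membrane, changed by 0.18 ± 0.08 (SE, adjusted p = 0.14). Mrps18a, which lies in the large subunit, changed by 0.07 ± 0.11 (SE, adjusted p = 0.67). None of these 4 was called at 24 h either, where their log2 changes lay between -0.28 and 0.05. In deposited values, Mrpl45 and Mrps30 were among the 10 members called higher at 72 h.

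Genes of members are mostly short, with a median span of 7.7 kb and a range of 0.8 to 121.7 kb in RefSeq (GRCm38.p6). The build behind the deposited values is not given in the sources used here. Of the members described above as called lower, Mrps9 (54.5 kb), Mrps6 (53.9 kb), Mrpl48 (62.5 kb) and Mrps28 (121.7 kb) are among the long ones. Long members that were not called are not named here. Of 15 fitted members over 15 kb, 3 were called lower at 24 h and 5 at 72 h, with medians of -0.25 and -0.23, and 0 were called higher. Of the 58 shorter members 7 and 15 were called lower and 3 and 1 higher, with medians of -0.16 and -0.19. Of all entries, 11.6% were called lower and 11.1% higher at 24 h, and 12% and 10.3% at 72 h. These counts are for the scaled values. Across the 73 members, which share their libraries, Spearman's rho between span and log2 change was -0.15 at 24 h and -0.17 at 72 h, and between level and log2 change -0.27 and -0.18. These are descriptions across genes, which are not independent replicates.

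In control cells the members changed little between 24 h and 72 h, a time in which the brite marker Ucp1 rose from 139.8 ± 53.8 (SD, n = 6) to 739.0 ± 138.5 RPKM (SD, n = 5). In NC 72 h against NC 24 h 5 members were called lower and 0 higher, or 6.85%, against 9.12% of 52834 entries (4.49% lower and 4.63% higher). The median was -0.08, beside 0.01 over all entries. The 5 were Mrpl37 (-0.57 ± 0.13, SE, adjusted p = 0.011, limma), Mrpl34 (-0.44 ± 0.09, SE, adjusted p = 0.0050), Mrpl20 (-0.29 ± 0.07, SE, adjusted p = 0.012), Mrps6 (-0.24 ± 0.07, SE, adjusted p = 0.042) and Mrpl30 (-0.22 ± 0.06, SE, adjusted p = 0.041). Mrpl37 went from 14.2 to 20.3 RPKM (median 16.8) in NC 24 h to 10.6, 12.0, 11.4, 12.6 and 9.21 in NC 72 h, without overlap. Its NC 72 h samples are those of the comparison with KD 72 h, in which it was called higher, so these 2 results are not independent. Mrpl20 and Mrpl30 were also separate between the times, while Mrpl34 and Mrps6 overlapped. The calls of Mrps6 and Mrpl30 were lost without any of 8 and 9 of the 12 libraries (adjusted p up to 0.087 and 0.095). Leaving out 1 library gave 3 members called lower without NC 24 h replicates 1, 2 or 4 or NC 72 h replicates 1, 4 or 5.

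Whether the effect of the knockdown itself differed between the times was tested by an interaction term over all groups. Of 59411 entries 119 were called, or 0.2%, of which 0.126% higher and 0.0741% lower, and 0 of the 73 members were (limma), with 6 at an unadjusted p under 0.05 and a smallest adjusted p of 0.19. It belonged to Mrpl9 (unadjusted p = 0.0039), which was higher at 24 h and level at 72 h. With voom on the recovered reads 0 members were called as well. The larger number of members called at 72 h than at 24 h is therefore not a difference that this test showed.

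The size of the knockdown effect varied with the set of libraries. At 24 h the larger set, with 4 libraries per group, gave 18 members called lower and 3 higher with a median of -0.28, beside 12.9% of all entries lower, 12.2% higher and a median of -0.03. The smaller set, with 2 per group, gave 1 lower and 0 higher with a median of 0.01, beside 1.59% and 1.36% of all entries and a median of 0.00. At 72 h the larger set gave 28 lower and 0 higher with a median of -0.28, beside 12.8% and 11.8% of all entries and a median of 0.02, and the smaller set 5 lower and 1 higher with a median of -0.08, beside 6.84% and 3.43% and a median of 0.00. All 10 members called lower at 24 h and all 20 at 72 h lay below 0 in both sets, but the calls had been made with both sets together. What distinguishes the sets was not tested.

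**Figure D3:**
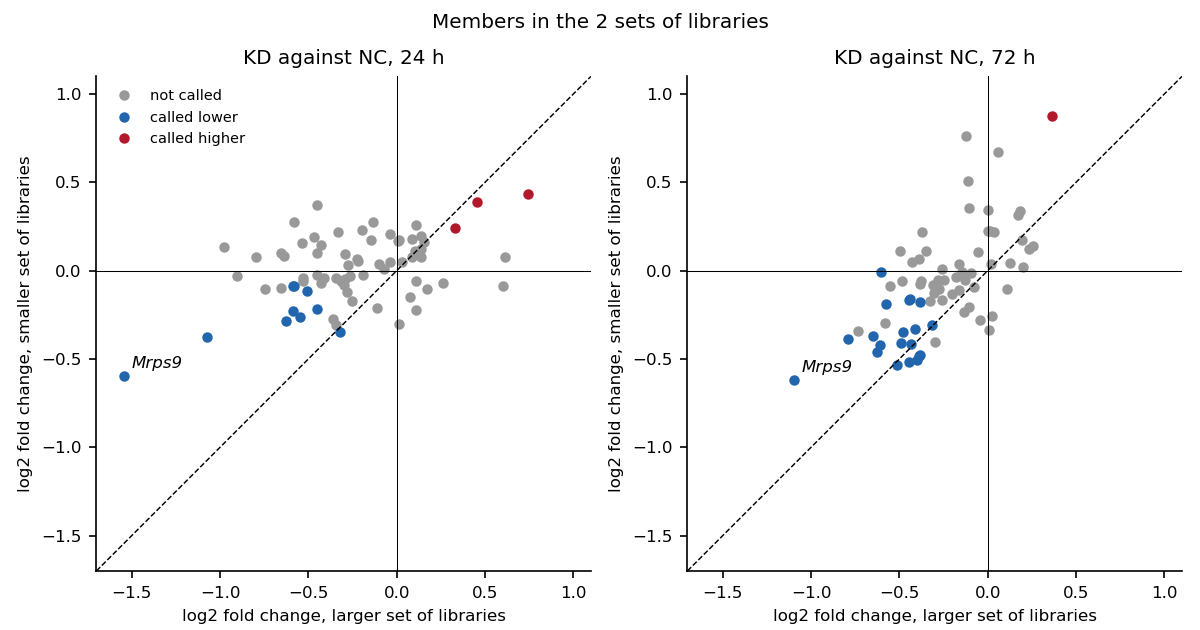
Log2 fold change of each fitted member in the larger set of libraries (x axis) against the smaller set (y axis), at 24 h and at 72 h; the dashed line marks equal values, and colours give the call over all libraries. At 24 h the points spread along the x axis, with medians of -0.28 in the larger and 0.01 in the smaller set; at 72 h the medians were -0.28 and -0.08, and Mrps9 was lowest in the larger set at both times.

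Proteins of the mitochondrial ribosome that carry other names were 7 in the list, all fitted. Dap3, a small subunit protein that binds GTP, was called lower at 24 h, at 12.6 ± 2.4 against 17.7 ± 1.0 RPKM (SD, n = 6 each; -0.50 ± 0.14, SE, adjusted p = 0.022, limma). At 72 h Aurkaip1 (-0.34 ± 0.09, SE, adjusted p = 0.014) and Mrp63 (-0.32 ± 0.10, SE, adjusted p = 0.039) were called lower, and the medians of the list were -0.16 and -0.24. As deposited, 0 of the 7 were called at 72 h and the median was 0.01. The counts of this list and of those that follow stand beside the shares of all entries called. These were 11.6% lower and 11.1% higher at 24 h, and 12% and 10.3% at 72 h. As deposited they were 10.4% and 12.2% at 24 h, and 5.7% and 24.2% at 72 h.

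Of factors that assemble the mitochondrial ribosome, 1 of 25 was called lower at 24 h and 2 of 26 at 72 h, and 0 were called higher. Their medians were 0.11 and 0.03 (as deposited at 72 h, 2 lower and 2 higher). Many of them lay far below the median of 51.9 RPKM of the fitted members, so the few calls do not show that they were unchanged. Mterfd2, whose product guides an RNA methyltransferase to the large subunit, was called lower at both times. It was at 4.12 ± 0.79 in KD and 9.29 ± 2.55 RPKM in NC at 24 h (SD, n = 6 each), and at 4.94 ± 1.28 (SD, n = 6) and 10.7 ± 1.6 RPKM (SD, n = 5) at 72 h. It changed by -1.12 ± 0.21 (SE, adjusted p = 0.0024, limma) and -1.12 ± 0.19 (SE, adjusted p = 0.00084). Trmt2b, which methylates mitochondrial RNA, was the other one called lower at 72 h (-0.95 ± 0.22, SE, adjusted p = 0.0079). Among 15 translation factors and regulators, the release factor gene Mtrf1l was called lower at 24 h (-1.09 ± 0.36, SE, adjusted p = 0.041) and Lrpprc, which stabilizes mitochondrial mRNAs, at 72 h (-0.81 ± 0.23, SE, adjusted p = 0.024). Both were low, below 3 RPKM in the mean of any group, and 0 of the 15 were called higher at either time. As deposited, 0 of the 15 were called at either time.

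The transcripts that the mitochondrial ribosome translates were lower in the knockdown as well. Of 13 mitochondrially encoded proteins 7 symbols were found and 6 were fitted. At 24 h 3 of these were called lower and at 72 h 6 of 6, with medians of -0.38 and -1.12 and 0 called higher, and as deposited 5 at 72 h with a median of -0.87. COX1, a core subunit of cytochrome c oxidase, was at 409.5 ± 38.3 RPKM (SD, n = 6) in KD 72 h and 991.7 ± 174.4 (SD, n = 5) in NC 72 h (-1.26 ± 0.12, SE, adjusted p = 9.8e-06, limma). ND5 and ND6 overlap on opposite strands, and as the use of strand in counting is not given, their reads cannot be told apart there.

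Other nuclear-encoded groups lay on either side of the members. Of 44 fitted complex I genes (Nduf), 12 were called lower at 24 h and 29 at 72 h, 0 higher, with medians of -0.23 and -0.42, and as deposited 10 and 8 were called lower. Of the genes in the cytosolic ribosomal protein list, whose reads can be shared with many processed copies, 56 of 84 were fitted at 24 h and 55 at 72 h. At 24 h 10 were called higher and 1 lower, and at 72 h 5 higher and 6 lower, with medians of 0.17 and 0.07. As deposited 16 were higher and 0 lower at 24 h, and 23 higher and 3 lower at 72 h. Of all entries, 11.6% were called lower and 11.1% higher at 24 h, and 12% and 10.3% at 72 h. As deposited these shares were 10.4% and 12.2% at 24 h, and 5.7% and 24.2% at 72 h. In the values as deposited the 72 h medians were 0.05 for the members, -0.17 for complex I and 0.33 for the cytosolic proteins, beside 0.25 over all entries. The order of the 3 groups was the same in both versions and at both times, and a difference between the groups was not tested.

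**Figure D4:**
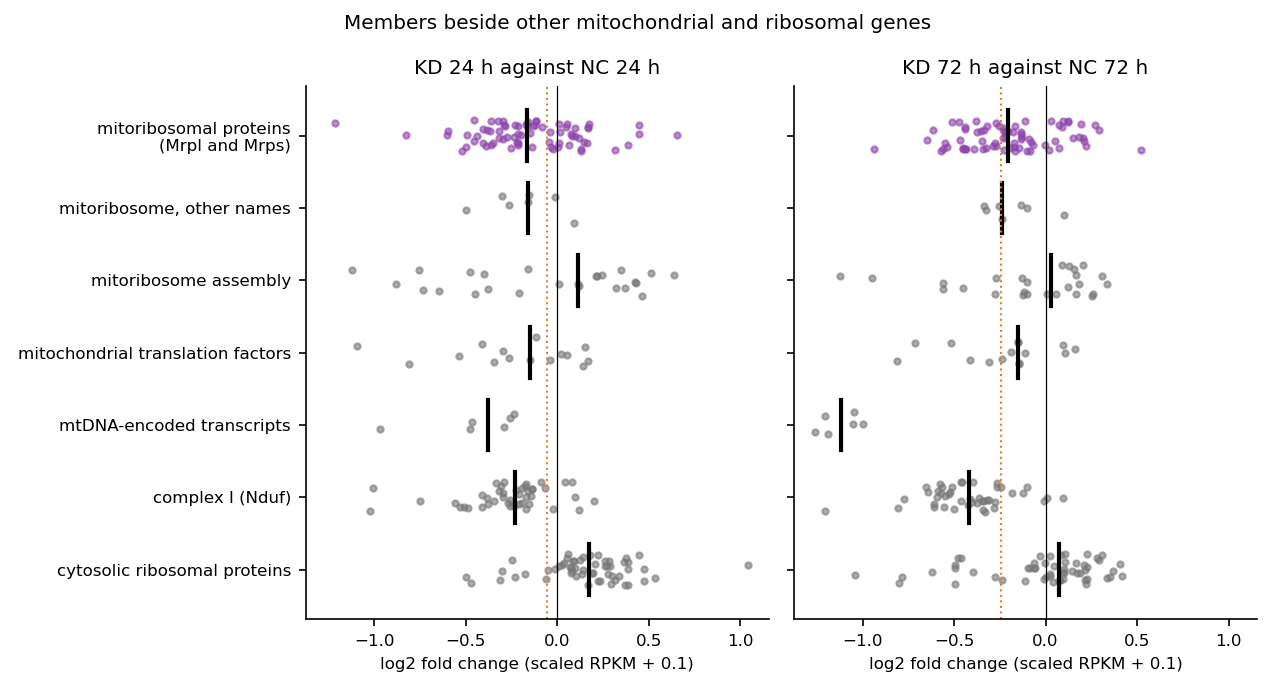
Log2 fold change (x axis) of each fitted gene of 7 groups in KD against NC at 24 h and 72 h, with thick bars for group medians; vertical scatter only separates points. The dotted line marks where no change in the deposited values falls on the scaled axis, -0.05 at 24 h and -0.24 at 72 h. Members (purple) have medians of -0.17 and -0.20, between complex I at -0.23 and -0.42 and the cytosolic ribosomal proteins at 0.17 and 0.07; in the deposited values the 72 h median of the members is 0.05.

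Regulators known to act on nuclear genes for mitochondria moved in both directions. Of 9 genes, 4 were called higher and 2 lower at 24 h, and 1 higher and 2 lower at 72 h, or 3 higher and 1 lower as deposited. Gabpa, the DNA-binding part of the ETS factor whose letters were searched above, was lower at both times (-0.80 ± 0.19, SE, adjusted p = 0.0097 and -0.65 ± 0.18, SE, adjusted p = 0.018, limma). Its partner Gabpb1 (1.18 ± 0.26, SE, adjusted p = 0.0061) and the coactivator Pprc1 (1.21 ± 0.27, SE, adjusted p = 0.0066) were higher at 24 h. Yy1, whose letters were also searched, was higher at 24 h (0.74 ± 0.24, SE, adjusted p = 0.037) and not called at 72 h (0.46 ± 0.22, SE, adjusted p = 0.15). Ppargc1a, a coactivator of mitochondrial genes in brown fat, was at 1.57 ± 0.58 RPKM (SD, n = 6) in KD 72 h and 3.75 ± 0.22 (SD, n = 5) in NC 72 h (-1.27 ± 0.23, SE, adjusted p = 0.0016). Myc, which acts on growth genes, was higher at 24 h (0.68 ± 0.20, SE, adjusted p = 0.025) and 72 h (0.61 ± 0.11, SE, adjusted p = 0.0017). Nrf1 was called at neither time. Among 8 fitted genes for copying and transcribing mitochondrial DNA, the helicase gene Peo1 was called higher at both times (0.65 ± 0.18, SE, adjusted p = 0.021 and 0.77 ± 0.19, SE, adjusted p = 0.011) and Tefm lower at 72 h (-0.41 ± 0.13, SE, adjusted p = 0.033).

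Cell type markers moved beside the members. Of 6 adipocyte markers 2 were called lower at 24 h and 3 at 72 h, and all 4 brite markers were called lower at both times (2 at 24 h as deposited), with Ucp1 at 59.3 ± 13.6 against 139.8 ± 53.8 RPKM (SD, n = 6 each) and 148.9 ± 57.0 (SD, n = 6) against 739.0 ± 138.5 RPKM (SD, n = 5). Of preadipocyte and stromal markers 1 was called higher at 72 h, Cd34. At that time Pdgfra changed by -0.30, Thy1 by -0.04 and Ly6a by 0.27, and Dlk1 and Dpp4 were not fitted. Summed, these stromal markers were at 671.9 to 857.4 RPKM in KD 72 h and 378.9 to 1016 in NC 72 h, which overlap. Of 6 macrophage markers 2 were fitted, of which Csf1r was higher at both times and Lyz2 lower at 72 h. Summed macrophage markers were at 2.59 to 18.3 RPKM in KD 24 h, 4.67 to 27.5 in NC 24 h, 5.55 to 10.5 in KD 72 h and 7.80 to 29.8 in NC 72 h. The part of these cell type and differentiation markers in the values of the members was not tested.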

How the data were processed

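Transcript abundance was measured in 24 libraries. Per the labels, libraries were tagmented from full-length cDNA; reads were handled by the authors in the Genomatix suite (version, build and handling of strand not given in the sources used here). The deposited values are RPKM for 168326 overlapping RefSeq, Ensembl and GenBank entries; 0 columns were left unused. Total mapped reads, 1391830 to 5926371 per library, were recovered from the RPKM steps (94.1% to 95.1% of low values whole within 0.05 reads). In NC 72 h replicate 6, 14.9% of low read numbers were odd, against 53.7% to 55.5% elsewhere; the reason was not tested.

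An entry was kept if at least n samples, n being the size of the smaller group, reached the value worth 10 reads in the median library, and if it had 15 reads or more overall. RPKM were scaled by a trimmed mean of log ratios (30% and 5%), which is not part of the deposited values. All entries were then modelled on the log2(scaled RPKM + 0.1) scale with limma 3.58.1 (trend, R 4.3.3; Benjamini-Hochberg, two-sided; the pseudocount understates changes of low genes). Levels are scaled over all libraries at once. Named were, in each comparison, up to 5 called members with the largest rise and 5 with the largest fall, up to 5 called in both knockdown comparisons, the 3 highest and 3 lowest by level, and Mrpl12, Mrps12, Mrpl44, Mrpl45, Mrps30, Mrps18a and Mrps36 by role. From each other list up to 3 called genes per knockdown comparison were named by adjusted p. Mrpl10, Mrpl14, Mrpl18, Mrpl24, Mrpl51, Mrps27, Mrps31, Mrps35, Yy1, Pdgfra, Thy1, Ly6a, Dlk1 and Dpp4 were named after their values were seen. Members, lists and rules were chosen with earlier results of these data known. The cytosolic list leaves out the S6 kinase genes, which its symbol rule also matched. It still holds other symbols that the rule matched beyond ribosomal protein genes. Of these, Rps19bp1 was fitted, and Rpl34-ps1 and Rpl31-ps12, named as pseudogenes, were not. Alternatives were other scalings, pseudocounts, filters, 1 entry per symbol, a replicate block, the library sets, voom, and leaving out each library. Comparisons of KD and of time share the NC libraries.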

Additional observations from a re-analysis of the deposited data

Results flagged for a closer look

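Among 80 groups of named members examined, 4 had 1 sample apart from the rest by Dixon's criterion at 95%, where chance gives about 1 in 20. Mrpl33 had 544.1 scaled RPKM in NC 24 h replicate 1, below the 660.6 to 692.4 of the other libraries of that group. Mrpl47 had 40.4 in NC 24 h replicate 3, below 50.9 to 55.1 in the others, and without that library its change at 24 h was 0.24 (limma, adjusted p = 0.11). Mrpl44 had 32.9 in NC 72 h replicate 6, above 24.2 to 26.0 in the others. Mrpl23 was listed at 1.02 in the mean of NC 72 h replicates 2 and 3 and at 0 in the other samples of that group.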

How the results depend on the processing

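The 25 calls of named members kept their direction in the 23 or 24 alternatives run for each, and 4 held in every one: Mrps9 in both knockdown comparisons, Mrpl30 at 72 h and Mrpl34 over time. Leaving out 1 library at a time, 18 of the 25 were kept throughout. In KD 24 h against NC 24 h, members called higher ranged from 1 to 3, lower from 7 to 15, and the median from -0.21 to -0.09 on leaving out 1 library. In KD 72 h against NC 72 h the ranges were 0 to 1, 14 to 23 and -0.23 to -0.18, in NC 72 h against NC 24 h 0 to 0, 3 to 6 and -0.10 to -0.06, and in the interaction 0, 0 and -0.06 to 0.04. As deposited, the medians were -0.11 at 24 h, 0.05 at 72 h (10 higher, 3 lower) and 0.18 in the interaction. Without a filter, which adds entries to the correction, 1 higher and 5 lower were called at 24 h, 0 higher at 72 h and 3 lower over time. The larger set gave 18 lower (median -0.28) at 24 h and 0 higher (median -0.28) at 72 h. The smaller set, with 2 libraries per group, gave 0 higher and 1 lower (median 0.01) at 24 h, 5 lower (median -0.08) at 72 h, 1 lower over time and a median of -0.10 in the interaction. With the entry of any kind that was highest per symbol, an alternative chosen after seeing the data, 9 were called lower over time. Its counts in the knockdown comparisons are not given here. With the replicate number as a block, 1 was called higher at 24 h, 0 higher and 12 lower at 72 h, and 1 lower over time. The numbers did not pair the libraries, as deviations of same-numbered libraries correlated at -0.10, 0.04 and 0.05 in the 3 comparisons, and 0, 1 and 2 of 6 libraries correlated best with their own number. The cause of these changes was not tested unless stated. Few reads limit the statements on Mrps18b and Mrps36, and those on Mrpl23 are limited by the entry chosen, since its reads lay in another entry.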
